A study of Mus musculus with 21 samples.

Results

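Isoproterenol and ivabradine move the heart rate in opposite directions, and their effects on the RNA of the regenerating neonatal mouse heart were compared here in the 6 libraries of these groups among the 21 of the study. Each of the 7 groups held 3 RNA-seq libraries from the heart apex of ICR mice (an outbred strain) at postnatal day 7, after amputation of the apex on day 1. In the isoproterenol group the resected pups received isoproterenol, in the ivabradine group ivabradine, in both by subcutaneous injection for 7 days. Values are also given for hearts that were resected only, with no injection named in their labels, called untreated below. The other 4 groups received amiodarone, metoprolol, propranolol or lidocaine after the same resection, and serve only to place ivabradine among them. Every group carried the resection, and no unresected heart was part of the comparison. The labels give no dose, heart rate, sex, time of day at harvest or vehicle injection, and do not say whether a library came from 1 heart or from a pool. A library is called a heart below. Levels are in FPKM, the fragments of a gene scaled to transcript length and library size. Of 18762 genes in the table, 12002 had at least 1 FPKM in at least 3 of the 6 libraries and were tested.

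Isoproterenol binds β-adrenergic receptors, which act through the stimulatory G protein on adenylyl cyclase to make cyclic AMP. Cyclic AMP activates protein kinase A, which speeds pacemaking, strengthens contraction and phosphorylates the transcription factor CREB, and phosphodiesterases, RGS proteins, receptor kinases and arrestins limit the signal. Ivabradine blocks the HCN channels that carry the pacemaker current of the sinus node and slows the heart without binding β-receptors. In the mouse, heart muscle cells leave the cell cycle and turn to fatty acids as fuel during the first days after birth, the window in which a resected apex can regrow.

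The 6 libraries were of like depth and of heart. Their summed FPKM ran between 498932 and 552905, and the low-value steps of 16 genes gave each of the 6 a depth of 1.0 relative to the median library of the study. The ventricular markers Myh6, Myl2 and Tnnt2 were high in all 6, and Tnnt2, the troponin T of heart muscle, lay between 5656 and 6984 FPKM. Of 9 lung markers 5, and of 12 liver markers 4, were under 0.1 FPKM in all 6. Isoproterenol library 3 carried atrial transcripts: Myl7, the atrial myosin light chain, had 1.27, 2.59 and 176 FPKM in isoproterenol hearts, against 1.09, 0.99 and 1.75 FPKM in ivabradine hearts. In the same library macrophage markers summed to 144 FPKM, against 256 and 293 FPKM in the other 2 isoproterenol libraries. Ivabradine library 3 stood out by its high immediate-early and CREB target genes, described with those genes. Y-linked transcripts were present in 0 of 3 isoproterenol, 2 of 3 ivabradine (libraries 1 and 3) and 2 of 3 untreated libraries, so the sexes were not balanced between the groups.

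Expression differed between the drugs in 2169 of 12002 genes, or 18.1%, at an adjusted p under 0.05 (limma, one fit of all 21 libraries). Of the 2169, 914 genes (7.62% of those tested) were higher and 1255 (10.5%) lower in isoproterenol hearts. The differences were small for the most part: the median size among called genes was 0.31 on the log2(FPKM + 1) scale, a scale that understates changes of weakly expressed genes. Of the called genes, 7 (0.0583% of those tested) were higher and 23 (0.192%) lower by at least 1 log2 unit. The 3 libraries of each group did not overlap in 3627 genes (30.2%), and 2038 of these passed the test. The first principal component of the 6 libraries held 49% of the variance and put isoproterenol at -16.7 to -9 and ivabradine at 10.6 to 15.5. These are whole-tissue values, in which fewer cells of a type and less RNA per cell cannot be told apart.

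The count depended on single libraries. It was 1126 without ivabradine library 3, 1364 without isoproterenol library 3 and 562 without both, and 1220 with a covariate for Y-linked transcripts. A fit of only the libraries without Y-linked transcripts left 3 isoproterenol against 1 ivabradine library. It also dropped libraries of other groups, so no count is read from it. The balance of directions depended on the scaling: with median-of-ratios size factors 1177 genes were higher and 1031 lower, so 53.3% of calls were higher, against 42.1% with FPKM as deposited.

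**Figure D1:**
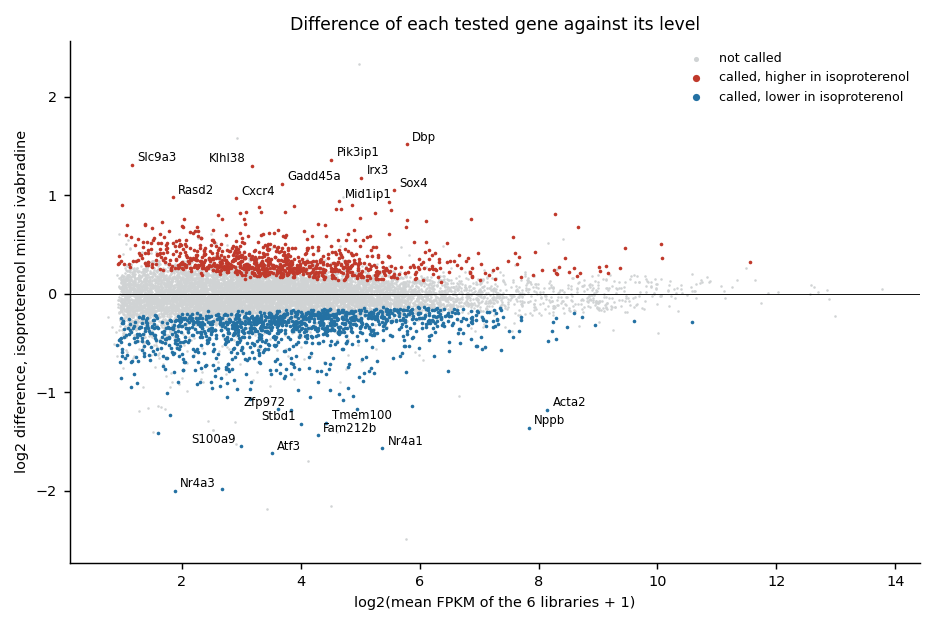
Log2 difference between isoproterenol and ivabradine hearts (vertical axis, isoproterenol minus ivabradine, on the log2(FPKM + 1) scale) against the log2 of the mean FPKM of the 6 libraries plus 1 (horizontal axis) for 12002 genes. Red points are the 914 genes called higher and blue points the 1255 called lower in isoproterenol hearts, and the 20 named genes with the widest called differences run between -2.0 (Nr4a3) and 1.52 (Dbp).

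The genes with the widest called differences whose libraries did not overlap were led, among those higher in isoproterenol hearts, by the clock output factor Dbp. They further held Pik3ip1, an inhibitor of PI3 kinase, the sodium-proton exchanger Slc9a3, Klhl38, the ventricular transcription factor Irx3, the growth-arrest gene Gadd45a, the developmental factor Sox4, the small G protein Rasd2, the chemokine receptor Cxcr4 and Mid1ip1. Among those lower were the nuclear receptors Nr4a3 and Nr4a1, the stress factor Atf3, the neutrophil protein gene S100a9, Fam212b, the natriuretic peptide gene Nppb, the glycogen-binding protein gene Stbd1, the endothelial membrane protein gene Tmem100, smooth muscle actin Acta2 and the zinc finger gene Zfp972. Slc9a3 had 2.65, 1.58 and 2.3 FPKM in isoproterenol hearts, against 0.24, 0.3 and 0.27 FPKM in ivabradine hearts and 0.32, 0.38 and 0.39 FPKM in untreated hearts. It was thus low in ivabradine and untreated hearts alike and high in all 3 isoproterenol hearts (log2 difference 1.31 ± 0.11, SE, here and in the brackets below, adjusted p = 3.4e-06). Pik3ip1 had 39.5, 26.2 and 29.2 FPKM in isoproterenol hearts, against 14.3, 13.1 and 8.04 FPKM in ivabradine hearts and 27.2, 22.1 and 22.1 FPKM in untreated hearts (1.36 ± 0.18, adjusted p = 1.4e-04). Isoproterenol and untreated hearts overlapped, and ivabradine hearts lay below both. Irx3, known for its part in ventricular conduction, had 44.3, 46.3 and 40.9 FPKM in isoproterenol hearts, against 21.4, 19.9 and 15.6 FPKM in ivabradine hearts and 43.4, 39.2 and 42.3 FPKM in untreated hearts (1.18 ± 0.15, adjusted p = 1.2e-04). Here isoproterenol and untreated hearts overlapped and ivabradine hearts lay below both. Cxcr4, the receptor of the chemokine Cxcl12, had 9.38, 8.23 and 9.1 FPKM in isoproterenol hearts, against 4.99, 4.67 and 2.78 FPKM in ivabradine hearts and 14.7, 16.8 and 16.1 FPKM in untreated hearts (0.97 ± 0.14, adjusted p = 1.8e-04), so that both drug groups lay below untreated hearts. The untreated levels are given as a description, without a test, here and below. On the first principal component of all libraries (28.1% of the variance) untreated hearts lay at 15.5, 28.8 and 25.7, and no drug library above 4.1. Their relative depth was 0.955 to 0.96. The skeletal muscle marker Mylpf had 8.65, 14.7 and 62.7 FPKM in them, against 1.34 to 2.8 FPKM in isoproterenol and ivabradine hearts. The part of this in the untreated levels was not tested.

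The main receptor gene did not pass the test. Adrb1, the main β-receptor of heart muscle, had 15.1, 17.2 and 14.6 FPKM in isoproterenol hearts, against 12.5, 14.6 and 11.9 FPKM in ivabradine hearts and 13.01, 12.5 and 12.8 FPKM in untreated hearts, and the difference missed the threshold (0.25 ± 0.09, adjusted p = 0.061). Adrb3 was under 1 FPKM in all 6 libraries and not tested. Of 21 tested genes from receptor to protein kinase A and Epac, 4 were higher, 4 lower and 13 not called, with a median log2 difference of 0.02 against -0.02 over all genes. The 4 higher were the adenylyl cyclases Adcy5, Adcy6 and Adcy9 and the regulatory kinase subunit Prkar1b. Adcy5, one of the main cyclases of heart muscle, had 33.7, 34.2 and 35.5 FPKM in isoproterenol hearts, against 22.9, 28.5 and 29.4 FPKM in ivabradine hearts and 21.7, 16.98 and 19.6 FPKM in untreated hearts (0.35 ± 0.09, adjusted p = 0.013). Adcy6, the other main one, had 68.1, 60.6 and 65.2 FPKM in isoproterenol hearts, against 53.03, 59.97 and 52.7 FPKM in ivabradine hearts and 56.4, 50.2 and 50.6 FPKM in untreated hearts (0.22 ± 0.07, adjusted p = 0.033). In both genes all isoproterenol libraries lay above all ivabradine libraries, though for Adcy6 the call held in only 8 of 17 alternative settings. The 4 lower were the kinase subunit Prkar1a (-0.24 ± 0.06, adjusted p = 0.011), the inhibitory G protein subunit Gnai1 (-0.24 ± 0.08, adjusted p = 0.035), Gnb1 (-0.15 ± 0.04, adjusted p = 0.027) and Rapgef3, the cyclic AMP-activated exchange factor Epac1 (-0.23 ± 0.07, adjusted p = 0.023). The 4 lower calls were lost without ivabradine library 3, and 1 was called lower without isoproterenol library 2 or 3. The 4 higher calls were 1 without ivabradine library 1. When the fit held the 2 groups alone 2 were higher and 0 lower, and with a covariate for Y-linked transcripts 1 was higher and 2 lower. Gnai1 and Gnb1 were each called in 8 of 17 alternatives and Rapgef3 in 9 of 17. The stimulatory subunit Gnas had a log2 difference of 0.06 ± 0.05 (SE) and did not pass.

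Genes that limit the signal differed in both directions. Of 23 tested, 5 were higher, 4 lower and 14 not called (median log2 difference -0.04). Over all genes 7.62% were called higher and 10.5% lower. The 4 lower in isoproterenol hearts were Rgs2, an accelerator of GTP hydrolysis that acts on Gq and Gs signalling, and the phosphodiesterases Pde4d, Pde4b and Pde3b. Rgs2 had 12.5, 13.2 and 14.2 FPKM in isoproterenol hearts, against 23.2, 22.4 and 25 FPKM in ivabradine hearts and 11.96, 11.2 and 10.4 FPKM in untreated hearts (-0.78 ± 0.09, adjusted p = 4.4e-05). Pde4d, which degrades cyclic AMP near β-receptors, had 4.2, 4.67 and 4.8 FPKM in isoproterenol hearts, against 6.88, 8.16 and 8.4 FPKM in ivabradine hearts and 4.56, 3.94 and 4.19 FPKM in untreated hearts (-0.66 ± 0.08, adjusted p = 1.1e-04). In both, the isoproterenol hearts lay close to the untreated hearts, and the ivabradine hearts lay above both groups. The 5 higher were Pde4a (0.32 ± 0.07, adjusted p = 0.0033), the cyclic GMP-stimulated Pde2a (0.31 ± 0.07, adjusted p = 0.0038), the receptor kinase Grk5 (0.34 ± 0.09, adjusted p = 0.011), the β-arrestin Arrb1 (0.3 ± 0.08, adjusted p = 0.013) and Rgs3 (0.29 ± 0.08, adjusted p = 0.014). Grk5, which phosphorylates activated receptors, had 14.9, 12.4 and 12.3 FPKM in isoproterenol hearts, against 9.71, 11.1 and 9.71 FPKM in ivabradine hearts. Arrb1, which binds receptors so marked, had 11.1, 9.48 and 10.2 FPKM in isoproterenol hearts, against 7.25, 8.78 and 8.38 FPKM in ivabradine hearts, and neither gene's groups overlapped. The higher calls were 2 without isoproterenol library 1 and 3 without ivabradine library 3, and Grk5, Arrb1 and Rgs3 were each called in 11 of 17 alternatives. When the fit held the 2 groups alone 1 was higher, and with a covariate for Y-linked transcripts 2 were. The lower calls were 4 in both. Adrbk1, the receptor kinase GRK2, did not pass (log2 difference 0.04 ± 0.05, SE). Adrbk2, the receptor kinase GRK3, is outside the list and was higher without overlap (0.49 ± 0.1, adjusted p = 0.0028).

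Genes known as targets of CREB were lower in isoproterenol than in ivabradine hearts: of 13 tested, 0 were higher, 9 lower and 4 not called, with a median log2 difference of -0.82. The Nr4a family are orphan nuclear receptors induced within minutes to hours by cyclic AMP and calcium. Nr4a3 had 0.26, 0.27 and 0.35 FPKM in isoproterenol hearts, against 2.21, 2.88 and 10.1 FPKM in ivabradine hearts and 0.31, 0.37 and 0.3 FPKM in untreated hearts (-2.0 ± 0.35, adjusted p = 0.001). Isoproterenol hearts were at the level of untreated hearts and all 3 ivabradine hearts were above it. Nr4a1 had 14.5, 19.2 and 15.03 FPKM in isoproterenol hearts, against 31.3, 29.4 and 133 FPKM in ivabradine hearts and 7.88, 6.73 and 8.4 FPKM in untreated hearts (-1.57 ± 0.43, adjusted p = 0.016). The isoproterenol values were above the untreated ones here, and the ivabradine values higher again, with library 3 more than the other 2. Sik1, a kinase that restrains CREB coactivators, had 15.3, 17.1 and 18.9 FPKM in isoproterenol hearts, against 30.1, 30.1 and 68.3 FPKM in ivabradine hearts and 8.27, 8.11 and 8.89 FPKM in untreated hearts (-1.17 ± 0.23, adjusted p = 0.0019). Ppargc1a, the coactivator of mitochondrial genes PGC-1α, had 16.6, 12.5 and 14.2 FPKM in isoproterenol hearts, against 20.5, 24.02 and 35.5 FPKM in ivabradine hearts and 12.5, 10.1 and 10.2 FPKM in untreated hearts (-0.82 ± 0.16, adjusted p = 0.0019). Both were highest in ivabradine library 3, and lowest in untreated hearts. Without ivabradine library 3, 6 of the 13 were still called lower, and the median was -0.55. The Nr4a1 difference was then -0.87 with an adjusted p of 0.093, and over all alternatives its adjusted p ran between 0.0085 and 0.31. Irs2, whose product relays insulin signals, was also highest in that library: it had 4.2, 4.3 and 5.94 FPKM in isoproterenol hearts, against 5.26, 7.31 and 22.02 FPKM in ivabradine hearts, and was not called. The regulators Crem and Gem, Pde4b and Pde4d and the clock gene Per1 made up the other called members.

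The windows of 250 bases before the start of 2 of these genes show the sequence that CREB is known to bind, the CRE (TGACGTCA) or its half-site (TGACG), read on both strands and here in capitals. Sequences are from RefSeq on GRCm38.p6, while the expression values rest on mm9. The half-site was found in 9 of 14 windows of 10 CREB targets (64.3%), against 17.8% of all 32851 promoter windows and 26.2% of the windows of tested genes. The full CRE, which contains the half-site, was found in 1 of the 14 (7.14%), against 1.55% of all and 2.48% of those of tested genes. Such matches describe letters, not binding. Nr4a1 holds 4 half-sites and Per1 holds 1 and a second motif in capitals, an E-box (CACGTG), described with the clock.
Nr4a1, chr15:101266596-101266845, plus strand: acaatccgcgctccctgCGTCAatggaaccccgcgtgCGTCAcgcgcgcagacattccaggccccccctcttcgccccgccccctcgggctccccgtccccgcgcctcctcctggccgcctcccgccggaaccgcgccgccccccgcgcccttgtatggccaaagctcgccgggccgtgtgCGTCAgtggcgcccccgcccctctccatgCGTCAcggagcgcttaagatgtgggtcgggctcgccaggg
Per1, chr11:69098699-69098948, plus strand: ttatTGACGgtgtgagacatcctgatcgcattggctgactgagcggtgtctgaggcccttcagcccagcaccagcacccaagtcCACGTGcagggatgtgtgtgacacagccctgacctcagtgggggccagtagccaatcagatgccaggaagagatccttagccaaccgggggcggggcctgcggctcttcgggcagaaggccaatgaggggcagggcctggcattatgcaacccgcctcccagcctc

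Immediate-early and stress transcription factors did not move as one. Of 20 tested, 1 was higher, 5 lower and 14 not called (median log2 difference -0.27), and 8 were lower without ivabradine library 1. The lower calls were 4 without isoproterenol library 1 and 4 without ivabradine library 3, where the median was -0.17. Without isoproterenol library 3 and ivabradine library 3 together, 3 were lower and 0 higher, with a median of -0.1. Atf3, a repressor induced by many stresses, had 3.78, 5.87 and 3.75 FPKM in isoproterenol hearts, against 13.3, 11.6 and 23.9 FPKM in ivabradine hearts and 4, 4.73 and 8.21 FPKM in untreated hearts (-1.62 ± 0.31, adjusted p = 0.0017). Klf4 had 24.4, 23.2 and 25.2 FPKM in isoproterenol hearts, against 36.6, 35.9 and 45.3 FPKM in ivabradine hearts and 24.1, 21.96 and 23 FPKM in untreated hearts (-0.66 ± 0.07, adjusted p = 3.7e-05), and Maff, a small Maf factor, had a log2 difference of -0.91 ± 0.1, adjusted p = 2.4e-05. For Klf4 the 3 isoproterenol hearts overlapped with untreated hearts and the 3 ivabradine hearts lay above both. Jun went the other way, with 73.9, 59.3 and 70.98 FPKM in isoproterenol hearts, against 42.1, 40.6 and 37.3 FPKM in ivabradine hearts and 69.95, 38.7 and 54.8 FPKM in untreated hearts (0.75 ± 0.16, adjusted p = 0.0035), while its relative Jund was lower (-0.53 ± 0.1, adjusted p = 0.0017). Fos had 2.7, 4.54 and 2.05 FPKM in isoproterenol hearts, against 3.36, 4.28 and 11.1 FPKM in ivabradine hearts and was not called, ivabradine library 3 again being the highest.

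**Figure D2:**
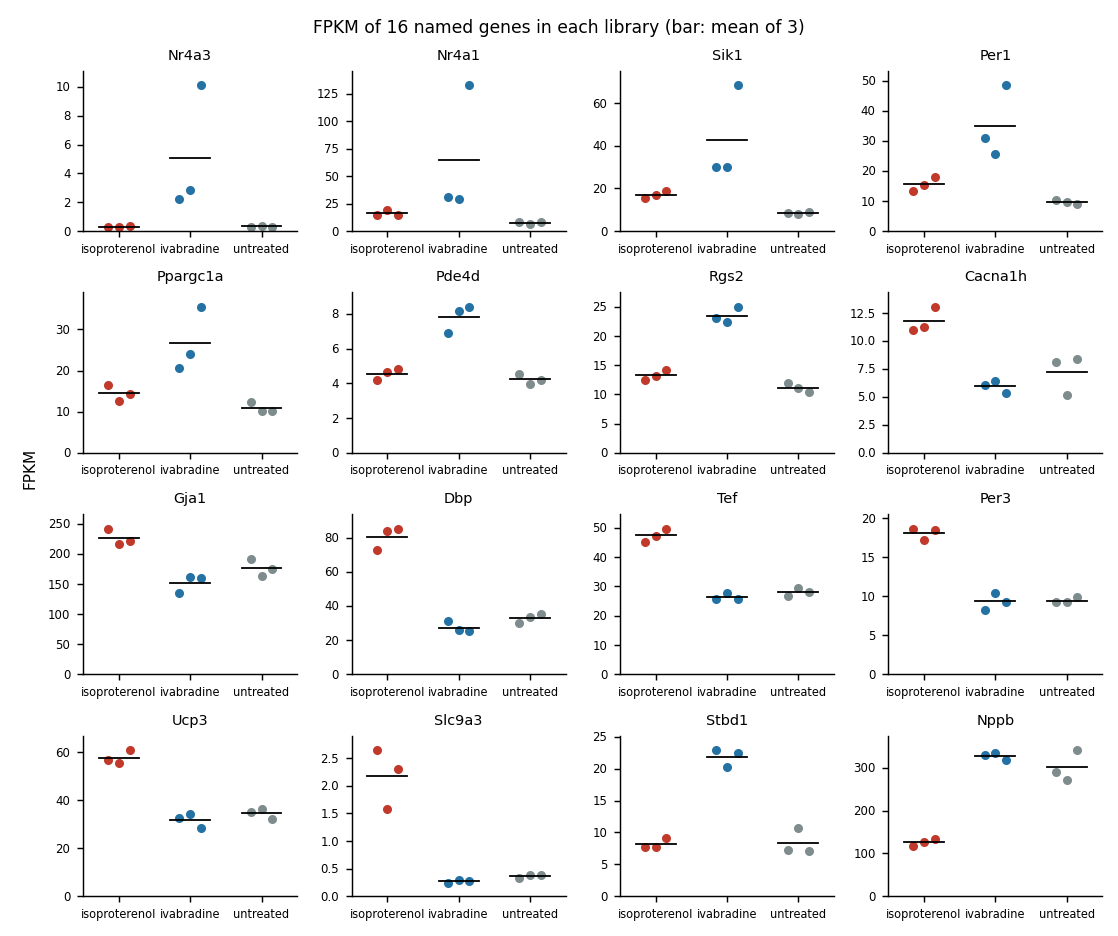
FPKM (vertical axes, starting at 0) of 16 named genes in each library of the isoproterenol (red), ivabradine (blue) and untreated (grey) groups. Each point is a library and each bar the mean of 3. The CREB targets Nr4a3, Nr4a1, Sik1, Per1 and Ppargc1a are highest in ivabradine library 3, and the clock genes Dbp, Tef and Per3 are higher in all 3 isoproterenol libraries than in any other shown.

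Among genes of pacemaker cells, Cacna1h, a T-type calcium channel, had 10.97, 11.2 and 13.1 FPKM in isoproterenol hearts, against 6.09, 6.45 and 5.31 FPKM in ivabradine hearts and 8.12, 5.17 and 8.37 FPKM in untreated hearts (0.88 ± 0.14, adjusted p = 4.8e-04), without overlap between the drugs. Hcn4, the main ivabradine-sensitive channel of the sinus node, was low in this ventricular tissue, with 1.51, 2.31 and 2.23 FPKM in isoproterenol hearts, against 0.72, 1.47 and 1.08 FPKM in ivabradine hearts and 0.74, 0.38 and 0.63 FPKM in untreated hearts. Hcn4 was at the edge of the threshold (0.53 ± 0.18, adjusted p = 0.05) and remained called in 4 of 16 alternatives. Hcn2, the HCN gene of highest level here, had 14.9, 18.3 and 24.6 FPKM in isoproterenol hearts, against 17.8, 16.8 and 16.2 FPKM in ivabradine hearts and did not pass (0.15 ± 0.18, adjusted p = 0.6). Tbx3, Tbx18 and Cacna1g were not called, and Hcn3, Cacna1d, Isl1 and Shox2 were below the filter.

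Of 25 tested ion channel and connexin genes, 7 were higher in isoproterenol hearts, 2 lower and 16 not called, with a median log2 difference of 0.18. All 3 connexins of the list were among the 7. Gja1, the main ventricular gap junction protein connexin 43, had 242, 217 and 221 FPKM in isoproterenol hearts, against 135, 161 and 159.7 FPKM in ivabradine hearts and 191, 164 and 175 FPKM in untreated hearts (0.58 ± 0.07, adjusted p = 8.1e-05). Gja5, connexin 40 of atria and conduction fibres, had 6.74, 7.69 and 8.31 FPKM in isoproterenol hearts, against 5.82, 5.23 and 4.97 FPKM in ivabradine hearts (0.43 ± 0.09, adjusted p = 0.0032), and Gjc1, connexin 45, had 35.7, 33.95 and 33.03 FPKM in isoproterenol hearts, against 26.3, 26.4 and 28.9 FPKM in ivabradine hearts (0.32 ± 0.07, adjusted p = 0.006). None of the 3 overlapped between the drugs. Kcnj5, a subunit of the acetylcholine-activated potassium channel, had 30.6, 33.6 and 32.4 FPKM in isoproterenol hearts, against 20.4, 24.4 and 17.9 FPKM in ivabradine hearts and 22.3, 15.8 and 17.6 FPKM in untreated hearts (0.61 ± 0.11, adjusted p = 0.0015). Kcnj11, the pore of the ATP-sensitive channel, was higher as well (0.27 ± 0.07, adjusted p = 0.014). The calcium channel subunit Cacnb2 (-0.3 ± 0.09, adjusted p = 0.022) and the potassium channel Kcna4 were lower. With median-of-ratios size factors 11 of the 25 were called higher, against 4 without ivabradine library 3. The count was 5 when the fit held the 2 groups alone, and also with a covariate for Y-linked transcripts. Among libraries without Y-linked transcripts, with 1 ivabradine library left, the median log2 difference was 0.12. The 2 lower calls were lost without isoproterenol library 1 and 1 was called lower without isoproterenol library 3, ivabradine library 2 or ivabradine library 3.

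Circadian clock genes differed in both directions. In the clock, CLOCK and ARNTL (BMAL1) drive Per, Cry, Nr1d1 and the output factors Dbp, Tef and Hlf from E-boxes, and the Per and Cry proteins and Nr1d1 feed back on them. Of 19 tested genes, 8 were higher in isoproterenol hearts (Dbp, Tef, Hlf, Per2, Per3, Nr1d1, Nr1d2 and Bhlhe41), 3 lower (Arntl, Clock and Per1) and 8 not called. The higher calls were 6 without isoproterenol library 3, without ivabradine library 1 or with the covariate for Y-linked transcripts. Without isoproterenol library 3 and ivabradine library 3 together, 4 were higher and 1 lower, while without isoproterenol library 1, 8 were higher and 4 lower. The calls of Per2, Nr1d2 and Clock were lost in 7 of 17, 6 of 17 and 3 of 16 alternatives. Dbp had 72.5, 83.9 and 85.3 FPKM in isoproterenol hearts, against 30.9, 25.8 and 25.5 FPKM in ivabradine hearts and 30.3, 33.5 and 35.3 FPKM in untreated hearts (1.52 ± 0.15, adjusted p = 1.6e-05). Tef had 45.1, 47.2 and 49.7 FPKM in isoproterenol hearts, against 25.6, 27.8 and 25.8 FPKM in ivabradine hearts and 26.6, 29.4 and 28.02 FPKM in untreated hearts (0.82 ± 0.09, adjusted p = 4.0e-05). Per3 had 18.7, 17.2 and 18.5 FPKM in isoproterenol hearts, against 8.23, 10.4 and 9.32 FPKM in ivabradine hearts and 9.2, 9.25 and 9.91 FPKM in untreated hearts (0.89 ± 0.11, adjusted p = 1.1e-04). In all 3 genes ivabradine and untreated hearts lay close together and isoproterenol hearts above both. Nr1d1, the repressor REV-ERBα, had 26.5, 33.2 and 31.1 FPKM in isoproterenol hearts, against 15.2, 16.4 and 16.9 FPKM in ivabradine hearts and 19.8, 22.1 and 20.1 FPKM in untreated hearts (0.86 ± 0.15, adjusted p = 8.9e-04). Arntl, singled out after its values were seen, had 2.19, 1 and 0.66 FPKM in isoproterenol hearts, against 3.33, 3.67 and 3.28 FPKM in ivabradine hearts and 4.01, 3.61 and 3.98 FPKM in untreated hearts (-1.01 ± 0.21, adjusted p = 0.0034), isoproterenol being the lowest of the 3 groups. Per1, also among the CREB targets above, had 13.2, 15.3 and 18.1 FPKM in isoproterenol hearts, against 30.8, 25.6 and 48.5 FPKM in ivabradine hearts and 10.5, 9.58 and 9.13 FPKM in untreated hearts (-1.08 ± 0.19, adjusted p = 0.0011), and both drugs lay above untreated hearts. The time of harvest is not in the labels, and its part in these differences was not tested.

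The E-box CACGTG was found in 6 of 21 promoter windows of 16 clock genes (28.6%), against 6.02% of all windows and 8.24% of those of tested genes. The D-box bound by Dbp, Tef and Hlf (TTATGTAA or TTACGTAA) was found in 1 of the 21 (4.76%), against 0.931% and 0.608%. Tef is shown for its E-box and Per3 for a pair of D-boxes, in capitals.
Tef, chr15:81802423-81802672, plus strand: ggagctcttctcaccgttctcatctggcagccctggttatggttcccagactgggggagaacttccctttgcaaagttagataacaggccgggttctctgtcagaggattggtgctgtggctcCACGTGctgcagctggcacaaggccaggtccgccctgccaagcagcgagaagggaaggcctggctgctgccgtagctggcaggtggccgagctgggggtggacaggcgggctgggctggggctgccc
Per3, chr4:151044666-151044915, minus strand: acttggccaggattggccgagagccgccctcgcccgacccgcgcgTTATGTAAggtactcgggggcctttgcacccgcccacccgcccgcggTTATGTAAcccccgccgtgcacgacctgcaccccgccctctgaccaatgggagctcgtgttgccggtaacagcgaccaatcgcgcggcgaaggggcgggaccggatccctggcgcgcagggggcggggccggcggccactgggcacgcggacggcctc

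Genes of cell division were lower in isoproterenol hearts. Of 33 tested mitosis genes 29 were lower, 0 higher and 4 not called, with a median log2 difference of -0.65 against -0.02 over all genes. Ccnb1, the cyclin of mitotic entry, had 5.82, 5.45 and 4.51 FPKM in isoproterenol hearts, against 9.15, 11.1 and 11.9 FPKM in ivabradine hearts and 13.02, 13.7 and 14.3 FPKM in untreated hearts (-0.9 ± 0.12, adjusted p = 1.3e-04). Aurka, a kinase of the spindle poles, had 5.06, 3.93 and 3.44 FPKM in isoproterenol hearts, against 8.05, 9.54 and 9.5 FPKM in ivabradine hearts and 9.28, 11.3 and 11.2 FPKM in untreated hearts (-0.97 ± 0.14, adjusted p = 2.3e-04). Mad2l1, of the spindle checkpoint, had a log2 difference of -0.56 ± 0.08, adjusted p = 2.8e-04, and Anln, of the cleavage furrow, one of -0.74 ± 0.11, adjusted p = 4.0e-04. In all 4 genes isoproterenol hearts were lower than ivabradine hearts without overlap. For Ccnb1 the untreated hearts were higher still than both drug groups. The mean log2(FPKM + 1) over the 33 genes was 2.79, 2.87 and 2.40 in isoproterenol hearts, 3.19, 3.30 and 3.41 in ivabradine hearts and 3.53, 3.66 and 3.58 in untreated hearts. Isoproterenol library 3, with the atrial transcripts, was the lowest and ivabradine library 3 the highest within its group. Without both, 17 of the 33 were called lower and the median was -0.45. Among libraries without Y-linked transcripts, 3 isoproterenol against 1 ivabradine, the median was -0.62. Macrophage marker sums, given with the cell types, were also lowest in the isoproterenol libraries, and their part in the mitosis difference was not tested.

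Of 29 tested DNA replication genes 15 were lower, 0 higher and 14 not called (median -0.30). Rrm2, the regulated subunit of ribonucleotide reductase, had 20.3, 16.9 and 16.4 FPKM in isoproterenol hearts, against 29.4, 40.9 and 37.1 FPKM in ivabradine hearts and 38.3, 48.4 and 53.3 FPKM in untreated hearts (-0.96 ± 0.14, adjusted p = 2.9e-04). Pcna, the sliding clamp, had 51.8, 55.1 and 44.5 FPKM in isoproterenol hearts, against 68.7, 71.9 and 82.2 FPKM in ivabradine hearts and 81.7, 89.04 and 86.2 FPKM in untreated hearts (-0.55 ± 0.08, adjusted p = 3.2e-04). Isoproterenol hearts lay below the other groups in both genes, while ivabradine and untreated hearts overlapped. Without isoproterenol library 3 and ivabradine library 3, 3 of the 29 were called, with a median of -0.19. Without isoproterenol library 3 alone 6 were called, and without ivabradine library 3 alone 5. Of 16 tested p53 targets 2 were higher, 4 lower and 10 not called, and the widest differences pointed in opposite directions. The lower calls were 1 without isoproterenol library 2 or ivabradine library 3 and 2 without isoproterenol library 3 or ivabradine library 2. Cdkn1a, the gene of the cyclin-kinase inhibitor p21, had 21.2, 16.6 and 16.9 FPKM in isoproterenol hearts, against 38.7, 33.98 and 42.7 FPKM in ivabradine hearts and 43.5, 49.3 and 49.6 FPKM in untreated hearts (-1.04 ± 0.1, adjusted p = 1.1e-05). Gadd45a had 17.5, 15.4 and 16.5 FPKM in isoproterenol hearts, against 6.42, 8.59 and 6.3 FPKM in ivabradine hearts and 13.1, 16.6 and 12.1 FPKM in untreated hearts (1.12 ± 0.12, adjusted p = 2.8e-05). Cdkn1a was lowest in isoproterenol hearts and Gadd45a lowest in ivabradine hearts, each without overlap with the other 2 groups.

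Promoters of many mitosis genes are known to hold CCAAT boxes, bound by NF-Y, and a CHR element (TTTGAA or TTCGAA), bound by complexes that repress in resting cells and activate in dividing ones. The CCAAT box was found on either strand in 22 of 28 windows of 27 mitosis genes (78.6%), against 33.8% of all windows and 35.1% of those of tested genes. The CHR was found in 11 of 28 (39.3%), against 17.1% and 12%. Shown in capitals are both motifs in Ccnb1, which holds a pair of CCAAT boxes and no CHR in this window, and in Ube2c and Cdk1, picked because their windows hold both motifs. Ube2c, a ubiquitin-conjugating enzyme of mitotic exit, had a log2 difference of -0.81 ± 0.13, adjusted p = 6.6e-04 and Cdk1, the kinase of mitosis, one of -0.69 ± 0.12, adjusted p = 0.001.
Ccnb1, chr13:100786487-100786736, minus strand: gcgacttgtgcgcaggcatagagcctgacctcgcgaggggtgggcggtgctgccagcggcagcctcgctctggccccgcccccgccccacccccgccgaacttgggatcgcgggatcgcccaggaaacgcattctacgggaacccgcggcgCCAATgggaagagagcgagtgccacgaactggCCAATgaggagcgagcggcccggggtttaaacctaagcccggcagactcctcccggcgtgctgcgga
Ube2c, chr2:164769679-164769928, plus strand: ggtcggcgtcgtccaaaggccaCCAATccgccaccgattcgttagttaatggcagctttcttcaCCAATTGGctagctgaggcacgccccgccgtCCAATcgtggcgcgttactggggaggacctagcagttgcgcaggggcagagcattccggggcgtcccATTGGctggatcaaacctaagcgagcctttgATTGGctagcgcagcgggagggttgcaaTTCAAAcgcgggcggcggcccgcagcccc
Cdk1, chr10:69352913-69353162, minus strand: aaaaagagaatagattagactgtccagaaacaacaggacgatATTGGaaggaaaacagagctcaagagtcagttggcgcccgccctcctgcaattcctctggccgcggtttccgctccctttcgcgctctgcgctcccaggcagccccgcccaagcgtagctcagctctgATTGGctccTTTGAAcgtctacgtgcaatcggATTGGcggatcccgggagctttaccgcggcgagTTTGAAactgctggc

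**Figure D3:**
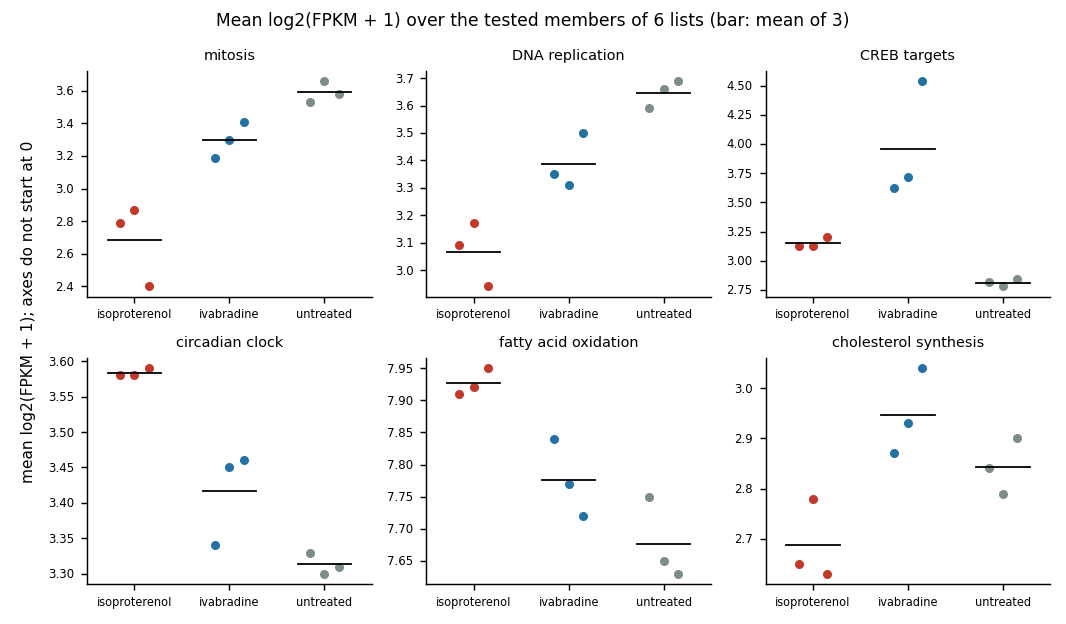
Mean log2(FPKM + 1) over the tested members of 6 gene lists (vertical axes, which do not start at 0) in each library of the isoproterenol (red), ivabradine (blue) and untreated (grey) groups, with a bar at the mean of 3. For mitosis, isoproterenol libraries lie at 2.40 to 2.87 and ivabradine libraries at 3.19 to 3.41, and for CREB targets isoproterenol libraries lie at 3.13 to 3.20 and ivabradine libraries at 3.62 to 4.54.

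Of 28 tested genes of fatty acid uptake and oxidation 12 were higher in isoproterenol hearts, 0 lower and 16 not called, with a median log2 difference of 0.15. Hadhb, a subunit of the mitochondrial trifunctional protein, had 711, 717 and 740.2 FPKM in isoproterenol hearts, against 622, 609.7 and 583 FPKM in ivabradine hearts and 542, 498 and 499.9 FPKM in untreated hearts (0.26 ± 0.05, adjusted p = 0.0025). Ucp3, a mitochondrial carrier that follows fatty acid use, stood apart with 57, 55.7 and 60.9 FPKM in isoproterenol hearts, against 32.6, 34.1 and 28.4 FPKM in ivabradine hearts and 35.05, 36.2 and 32.2 FPKM in untreated hearts (0.85 ± 0.13, adjusted p = 3.7e-04). For both genes ivabradine hearts lay nearer to untreated hearts than isoproterenol hearts did. The transporter Slc27a1 (0.32 ± 0.07, adjusted p = 0.0052) and Hadha (0.23 ± 0.05, adjusted p = 0.0062) were also higher. The count of 12 was 2 when the fit held the 2 groups alone, 5 without ivabradine library 3 and 7 without isoproterenol library 2. Of 37 respiratory chain genes, 1 was higher (Ndufa10, 0.21 ± 0.06, adjusted p = 0.015), 0 lower and 36 not called (median 0.08). With ivabradine library 1 left out 7 were higher, without isoproterenol library 1 there were 2, and the call was lost without isoproterenol library 3, ivabradine library 2 or ivabradine library 3.

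In glycolysis 4 of 22 tested genes were higher and 2 lower, with 2 higher without isoproterenol library 2 or 3. The 2 lower calls were lost without ivabradine library 3 and were 1 without isoproterenol library 1. Eno3, the muscle enolase, had 1175, 1295 and 1269 FPKM in isoproterenol hearts, against 929, 791 and 906 FPKM in ivabradine hearts and 878, 893 and 807 FPKM in untreated hearts (0.51 ± 0.07, adjusted p = 2.5e-04). The muscle phosphofructokinase Pfkm was higher (0.2 ± 0.06, adjusted p = 0.019), and the platelet form Pfkp (-0.2 ± 0.06, adjusted p = 0.019) and the bifunctional enzyme Pfkfb2 (-0.32 ± 0.08, adjusted p = 0.0097) were lower. Of 14 glycogen genes, the phosphorylases Pygm (0.27 ± 0.06, adjusted p = 0.0069) and Pygb (0.3 ± 0.07, adjusted p = 0.0067) were higher, and Ugp2, which makes the glycogen precursor, was lower (-0.33 ± 0.07, adjusted p = 0.0032). Stbd1, which tethers glycogen to membranes, had 7.65, 7.7 and 9.16 FPKM in isoproterenol hearts, against 22.9, 20.3 and 22.4 FPKM in ivabradine hearts and 7.3, 10.7 and 7.1 FPKM in untreated hearts (-1.32 ± 0.12, adjusted p = 3.4e-06). Isoproterenol and untreated hearts overlapped for Stbd1, and ivabradine hearts lay above both. Of 19 tested genes of PPAR response and lipid storage 6 were higher and 4 lower, with 2 lower without isoproterenol library 3 or ivabradine library 2. Lipe, hormone-sensitive lipase, was higher (0.49 ± 0.08, adjusted p = 7.0e-04), as were Pdk2, a kinase that restrains pyruvate dehydrogenase (0.41 ± 0.07, adjusted p = 7.4e-04), and Dgat2, of triglyceride synthesis (0.39 ± 0.08, adjusted p = 0.0043). Plin4, a lipid droplet protein, had 23.9, 27.4 and 24.1 FPKM in isoproterenol hearts, against 35.2, 34.6 and 36.4 FPKM in ivabradine hearts and 23.9, 19.7 and 21.02 FPKM in untreated hearts (-0.48 ± 0.07, adjusted p = 1.9e-04) and was lower.

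Sterol genes were lower in isoproterenol hearts: of 20 tested genes of cholesterol synthesis and uptake 10 were lower, 0 higher and 10 not called (median -0.29). Insig1, the sterol-sensing retention factor, had 8.62, 9.34 and 8.13 FPKM in isoproterenol hearts, against 12.2, 11.9 and 14.98 FPKM in ivabradine hearts and 9.22, 10.7 and 10.5 FPKM in untreated hearts (-0.53 ± 0.08, adjusted p = 3.5e-04). Hmgcs1, which makes HMG-CoA, had 16.2, 17.6 and 16.9 FPKM in isoproterenol hearts, against 22.3, 23.8 and 22.1 FPKM in ivabradine hearts and 18.2, 16.9 and 17.5 FPKM in untreated hearts (-0.41 ± 0.07, adjusted p = 0.0012), and for it isoproterenol and untreated hearts overlapped while ivabradine hearts lay above. Without ivabradine library 3, 4 of the 20 were called lower, and without isoproterenol library 1 or 3, 5. A sterol response element (TCACNCCAC) was found in 1 of 15 windows of 13 of these genes (6.67%), against 1.05% of all windows and 0.98% of those of tested genes. That window is the RefSeq promoter window of Hmgcs1, with the element in capitals. Unlike for the other genes shown, the bases after its start were not found near the beginning of an annotated transcript of the gene.
Hmgcs1, chr13:119690101-119690350, plus strand: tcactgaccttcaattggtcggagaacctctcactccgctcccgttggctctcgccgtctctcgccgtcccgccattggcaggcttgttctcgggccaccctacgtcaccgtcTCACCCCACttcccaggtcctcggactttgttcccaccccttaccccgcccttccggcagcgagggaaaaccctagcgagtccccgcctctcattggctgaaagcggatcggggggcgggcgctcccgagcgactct

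Of 18 tested genes of the unfolded protein response 2 were higher and 4 lower. The lower calls were 2 without isoproterenol library 2 or 3 or ivabradine library 1 or 2, and the higher calls 1 without isoproterenol library 1 or ivabradine library 2 or 3. Hspa5, the chaperone BiP, had 159, 113 and 123 FPKM in isoproterenol hearts, against 208, 217 and 162 FPKM in ivabradine hearts and 163, 159 and 159 FPKM in untreated hearts (-0.57 ± 0.16, adjusted p = 0.019), and the transcription factor gene Atf4 had a log2 difference of -0.43 ± 0.07, adjusted p = 3.1e-04. Herpud1, of the degradation arm, was higher (0.35 ± 0.08, adjusted p = 0.0048). The Hspa5 groups did not overlap.

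Among heart muscle genes, Nppb, Acta2 and Nes were the 3 genes called lower of 11 tested fetal and stress genes (0 higher, median -0.33). Nppb, B-type natriuretic peptide, a marker of wall stress, had 118, 128 and 135 FPKM in isoproterenol hearts, against 331, 334 and 318 FPKM in ivabradine hearts and 289.9, 272 and 342 FPKM in untreated hearts (-1.36 ± 0.33, adjusted p = 0.0088). Acta2, smooth muscle actin, which immature heart muscle also makes, had 174, 146 and 199 FPKM in isoproterenol hearts, against 423, 372 and 379.9 FPKM in ivabradine hearts and 263, 301 and 287 FPKM in untreated hearts (-1.18 ± 0.13, adjusted p = 2.4e-05). Nes, the intermediate filament nestin, had 19.99, 23.6 and 20.9 FPKM in isoproterenol hearts, against 37.1, 39.1 and 42.1 FPKM in ivabradine hearts and 24.03, 23.4 and 26.2 FPKM in untreated hearts (-0.85 ± 0.07, adjusted p = 3.4e-06). For Nppb and Acta2 isoproterenol hearts lay below untreated hearts, and for Acta2 and Nes ivabradine hearts lay above them. Nppa, which encodes the atrial natriuretic peptide, had 712, 951 and 1012 FPKM in isoproterenol hearts, against 1091, 1226 and 1186 FPKM in ivabradine hearts and did not pass (-0.4 ± 0.3, adjusted p = 0.39). Of 21 tested adult sarcomere genes 3 were higher and 0 lower. Tcap, the titin cap of the Z-disc, had 386, 626 and 498 FPKM in isoproterenol hearts, against 354, 288 and 285 FPKM in ivabradine hearts and 383, 412 and 359.8 FPKM in untreated hearts (0.68 ± 0.15, adjusted p = 0.0044), and Ldb3, a Z-disc protein, was also higher (0.26 ± 0.05, adjusted p = 0.0032). Myh6, the adult myosin, had a log2 difference of 0.09 ± 0.07 (SE) and did not pass. In calcium handling 3 of 16 were lower and 0 higher, with 1 lower without isoproterenol library 2, isoproterenol library 3 or ivabradine library 3, and also with median-of-ratios size factors. Among the 3 was Jph2, which holds the dyad together, with 120.5, 136 and 139.6 FPKM in isoproterenol hearts, against 162, 169 and 169 FPKM in ivabradine hearts and 111, 101 and 108 FPKM in untreated hearts (-0.34 ± 0.06, adjusted p = 0.0012). The shares called of the sarcomere and calcium handling lists were near or below the 18.1% of all genes, and nothing is read from them about these lists.

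Of 18 tested FoxO and atrophy genes 7 were higher and 1 lower (median 0.13). Without ivabradine library 3, 4 were higher, and the lower call was lost when any of 4 libraries was left out (isoproterenol 1, isoproterenol 3, ivabradine 1 or ivabradine 3). Among libraries without Y-linked transcripts, with 1 ivabradine library left, the median was 0.16. Txnip, an inhibitor of glucose uptake, had 445, 379 and 354 FPKM in isoproterenol hearts, against 229, 248 and 195 FPKM in ivabradine hearts and 429, 362 and 387 FPKM in untreated hearts (0.81 ± 0.13, adjusted p = 4.6e-04). Cited2, a FoxO target, had 26.6, 22.5 and 21 FPKM in isoproterenol hearts, against 14.4, 13.3 and 13.7 FPKM in ivabradine hearts and 20.96, 19.9 and 22.1 FPKM in untreated hearts (0.71 ± 0.09, adjusted p = 1.3e-04). Ivabradine hearts were the lowest of the 3 groups in both. The factors Foxo3 (0.33 ± 0.06, adjusted p = 0.0022), Foxo4 (0.4 ± 0.09, adjusted p = 0.0044) and Foxo1 (0.27 ± 0.08, adjusted p = 0.018) were all higher, though Foxo1 was called in only 9 of 17 alternatives. The ubiquitin ligase Fbxo32 had a log2 difference of 0.33 ± 0.12 (SE) and was not called.

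Of 13 glucocorticoid-responsive genes 1 was higher and 4 lower, Klf9, which glucocorticoids induce, being among the lower ones (-0.43 ± 0.09, adjusted p = 0.0029). The 16 tested YAP targets held 3 higher and 0 lower, with Amotl2 (0.43 ± 0.11, adjusted p = 0.013) and Cyr61 (0.4 ± 0.11, adjusted p = 0.019) in front. Without ivabradine library 1, 1 was higher and 2 lower, without isoproterenol library 1 or 2, 1 was higher, and with the covariate for Y-linked transcripts the calls were lost. Cyr61, a matricellular protein, had 33.1, 34.8 and 33.1 FPKM in isoproterenol hearts, against 22.6, 24.2 and 29.5 FPKM in ivabradine hearts and 26.9, 29.8 and 31.7 FPKM in untreated hearts. Of 21 growth factor and receptor genes studied in heart regeneration 3 were higher and 1 lower, with 1 higher without isoproterenol library 3 and the lower call lost without isoproterenol library 1 or 3. Fgf9, which acts on developing heart muscle, had 2.74, 2.38 and 2.88 FPKM in isoproterenol hearts, against 1.85, 1.76 and 1.66 FPKM in ivabradine hearts (0.41 ± 0.09, adjusted p = 0.0054). In 15 hypoxia genes 1 was higher and 0 lower, a call lost without isoproterenol library 3, with 2 higher without ivabradine library 1. In 15 interferon genes, 11 MHC class I and antigen processing genes and 22 lysosomal genes limma called 0 either way. The unadjusted counts of those 3 lists at p under 0.05 were 1, 0 and 5. The shares called of the YAP, growth factor and hypoxia lists were near or below the 18.1% of all genes, and nothing is read from them about these lists.

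**Figure D4:**
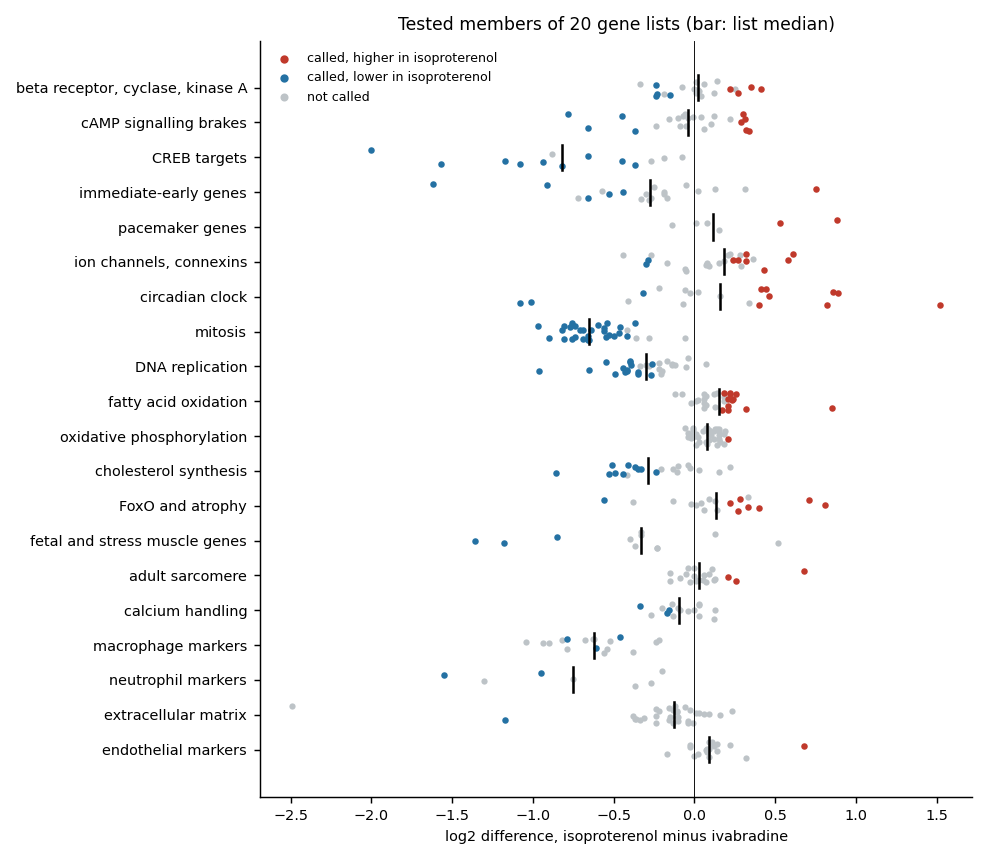
Log2 difference, isoproterenol minus ivabradine (horizontal axis), of each tested member of 20 gene lists (rows), with red points called higher, blue points called lower, grey points not called and a black bar at the list median. Mitosis genes lie between -0.97 and -0.06 with a median of -0.65, and the medians of fatty acid oxidation (0.15) and ion channels (0.18) lie to the right of 0.

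Of 17 tested macrophage markers 3 were lower in isoproterenol hearts, 0 higher and 14 not called (median -0.62), and 13 did not overlap. The share called was near the 18.1% over all genes, of which 30.2% did not overlap. The 20 markers summed to 256, 293 and 144 FPKM in isoproterenol hearts, 389, 403 and 348 FPKM in ivabradine hearts and 380, 823 and 876 FPKM in untreated hearts. Csf1r, the receptor that macrophages need, had 10.01, 9.27 and 7.62 FPKM in isoproterenol hearts, against 12.96, 11.5 and 13.5 FPKM in ivabradine hearts and 17.2, 20.8 and 21.1 FPKM in untreated hearts (-0.46 ± 0.13, adjusted p = 0.021). Without isoproterenol library 3 limma called 0 of the 17, 4 had an unadjusted p under 0.05, and the median was -0.41. The count was also 0 without ivabradine library 1 and without ivabradine library 3, and 10 when the fit held the 2 groups alone. The count was 1 without isoproterenol library 1. Of 7 tested neutrophil markers 2 were lower and 0 higher (median -0.75). Both neutrophil calls were lost when any 1 of the 3 isoproterenol libraries, ivabradine library 1 or ivabradine library 3 was left out, and 1 was called lower without ivabradine library 2. S100a9 had 2.75, 3.25 and 3.1 FPKM in isoproterenol hearts, against 13.9, 8.6 and 10.4 FPKM in ivabradine hearts and 9.24, 62.2 and 6.43 FPKM in untreated hearts (-1.55 ± 0.48, adjusted p = 0.031), called in 7 of 17 alternatives. Its isoproterenol libraries were below all others shown, and untreated library 2 was far above the rest.

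In the other cell types the shares called were near or below the 18.1% of all genes or rested on few markers, and nothing is read from them about the cell types. Aplnr, the apelin receptor of venous and growing vessels, was the 1 of 19 endothelial markers called, with 82.3, 56.2 and 59.5 FPKM in isoproterenol hearts, against 39.1, 47.04 and 35.4 FPKM in ivabradine hearts and 86.4, 75.9 and 87.9 FPKM in untreated hearts (0.68 ± 0.13, adjusted p = 0.0017). Pecam1, found in all endothelium, had 108, 99.5 and 103 FPKM in isoproterenol hearts, against 95.6, 94.6 and 103 FPKM in ivabradine hearts and was not called. Of 14 fibroblast markers 1 was lower, Mfap5 (-0.44 ± 0.12, adjusted p = 0.014), a call lost without ivabradine library 1, and of 32 matrix genes 1 was lower, Thbs1, a matricellular protein, with 6.44, 6.34 and 6.13 FPKM in isoproterenol hearts, against 9.93, 15.7 and 23.3 FPKM in ivabradine hearts and 5, 11.3 and 15.3 FPKM in untreated hearts (-1.17 ± 0.3, adjusted p = 0.011), a call lost without ivabradine library 3. Col1a1 had 433, 490.4 and 430.1 FPKM in isoproterenol hearts, against 431, 503 and 477 FPKM in ivabradine hearts, with overlap. Of 12 epicardial markers Wt1 was lower (-0.54 ± 0.11, adjusted p = 0.0026). Of 13 smooth muscle and pericyte markers Acta2 was lower. Notch3 and Pdgfrb were called higher, but in only 7 of 17 and 4 of 17 alternatives, and both calls were lost without any 1 of the 3 isoproterenol libraries and under the replicate block. Nr2f2, a factor of atria and veins, was the 1 of 6 tested atrial markers called (0.38 ± 0.07, adjusted p = 0.0019), with 2 called without isoproterenol library 1 and 3 without isoproterenol library 2. Erythroid markers held 1 higher gene of 7, Slc4a1 (0.73 ± 0.24, adjusted p = 0.038), called in 6 of 16 alternatives and lost without isoproterenol library 1 or 2 or ivabradine library 2 or 3. The part of any of these cell types in the other differences was not tested.

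**Figure D5:**
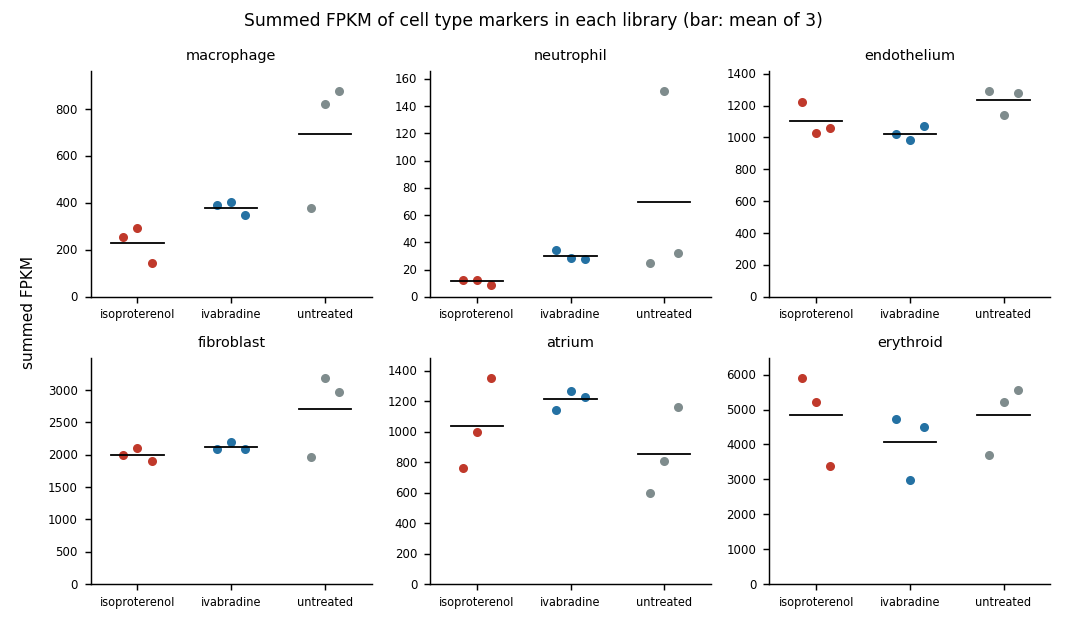
Summed FPKM of the markers of 6 cell types (vertical axes, starting at 0) in each library of the isoproterenol (red), ivabradine (blue) and untreated (grey) groups, with a bar at the mean of 3. Macrophage sums are 144 to 293 in isoproterenol, 348 to 403 in ivabradine and 380 to 876 in untreated libraries, and the atrial sum is highest in isoproterenol library 3.

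Ivabradine was last set against the 4 other anti-arrhythmic groups, to see where this arm stands apart from the drugs most like it. In this contrast (limma, ivabradine minus the mean of the 4 groups) 37 of 12002 genes, or 0.308%, were called, 15 higher and 22 lower in ivabradine hearts, and 1562 had an unadjusted p under 0.05. The count was 11 without ivabradine library 1, 92 without library 2 and 5 without library 3. It uses the same ivabradine libraries as the comparison above, so the values are given side by side and nothing is read from their likeness. In several genes above, ivabradine hearts exceeded both isoproterenol and untreated hearts. Of these, Nr4a3, Nr4a1, Sik1, Per1, Rgs2, Pde4d, Klf4, Stbd1 and Nes were not among the 37, while Ppargc1a, Plin4 and Pfkfb2 were. Pfkfb2 had 12.88, 16.62 and 16.55 FPKM in ivabradine hearts, against 11.89, 11.53 and 12.58 FPKM in isoproterenol hearts and 11.89, 11.41 and 10.52 FPKM in untreated hearts. Ppargc1a had 20.5, 24.02 and 35.5 FPKM in ivabradine hearts, against a median of 15.9 FPKM and a range of 13.5 to 26.2 FPKM in the 12 libraries of the other 4 drugs (log2 difference 0.6 ± 0.13, adjusted p = 0.045). Rhobtb1 had 23.7, 24.4 and 21.2 FPKM in ivabradine hearts, against a median of 14.8 FPKM and a range of 13.1 to 19.3 FPKM in the 12 libraries of the other 4 drugs (log2 difference 0.57 ± 0.06, adjusted p = 5.8e-05). Rhobtb1 did not overlap with the other 12 libraries, while the lowest Ppargc1a values did, and the Ppargc1a call held in only 8 of 24 alternatives, with an adjusted p up to 0.24. Gpcpd1 had 37.2, 42.9 and 42.2 FPKM in ivabradine hearts, against a median of 26.7 FPKM and a range of 20.2 to 41.6 FPKM in the 12 libraries of the other 4 drugs (log2 difference 0.54 ± 0.08, adjusted p = 0.0046). Noct had 24.6, 21.1 and 27.8 FPKM in ivabradine hearts, against a median of 15.9 FPKM and a range of 11.97 to 25.7 FPKM in the 12 libraries of the other 4 drugs (log2 difference 0.49 ± 0.1, adjusted p = 0.033). Noct encodes the rhythmically expressed phosphatase nocturnin, and both genes overlapped with the highest of the other libraries. Arl4d had 10.3, 9.38 and 10.6 FPKM in ivabradine hearts, against a median of 7.02 FPKM and a range of 5.23 to 8.17 FPKM in the 12 libraries of the other 4 drugs (log2 difference 0.49 ± 0.09, adjusted p = 0.017). Arl4d, a small G protein gene, did not overlap with them. Angptl4 had 34.1, 37.2 and 31.2 FPKM in ivabradine hearts, against a median of 54.1 FPKM and a range of 43.04 to 83 FPKM in the 12 libraries of the other 4 drugs (log2 difference -0.74 ± 0.11, adjusted p = 0.0069). Ctgf had 53.8, 65.3 and 60.03 FPKM in ivabradine hearts, against a median of 110.3 FPKM and a range of 65.6 to 237 FPKM in the 12 libraries of the other 4 drugs (log2 difference -0.94 ± 0.18, adjusted p = 0.024). Angptl4 restrains lipoprotein lipase, and Ctgf encodes a matricellular growth factor of the family of Cyr61. Irx3 had 21.4, 19.9 and 15.6 FPKM in ivabradine hearts, against a median of 33.05 FPKM and a range of 19.2 to 41.2 FPKM in the 12 libraries of the other 4 drugs (log2 difference -0.66 ± 0.12, adjusted p = 0.017). Cyr61 had 22.6, 24.2 and 29.5 FPKM in ivabradine hearts, against a median of 36.7 FPKM and a range of 29.3 to 54.4 FPKM in the 12 libraries of the other 4 drugs (log2 difference -0.57 ± 0.09, adjusted p = 0.0069). Angptl4 and Ctgf did not overlap, whereas Irx3 and Cyr61 did. Zfp608 had 3.01, 3.76 and 3.5 FPKM in ivabradine hearts, against a median of 5.52 FPKM and a range of 3.8 to 7.53 FPKM in the 12 libraries of the other 4 drugs (log2 difference -0.54 ± 0.1, adjusted p = 0.017). The ivabradine values of this zinc finger gene lay below those of the other drugs. Untreated hearts had 57.9, 42.4 and 64.1 FPKM of Ctgf and 10.7, 9.61 and 9.91 FPKM of Arl4d. In Ctgf, Arl4d and Cyr61 ivabradine hearts overlapped with untreated hearts. In Ppargc1a, Rhobtb1, Gpcpd1, Noct, Angptl4, Irx3 and Zfp608 they did not.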

How the data were processed

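RNA-seq libraries of 7 groups of 3 were read as gene-level FPKM values that the authors deposited for 18762 genes. Per the labels' protocols, sequencing was on the BGISEQ-500. The submitters' processing notes name HISAT, Bowtie2 2.2.5 and the genome build mm9, and the counting tool and annotation are not given in the sources used here. Sequencing depth is unknown, and no counting interval is given. The relative depths come from low FPKM values lying within 0.2 of a whole number of fragments. The labels do not say whether replicate libraries were separate hearts, so p-values measure the spread between these samples, which may be technical.

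Genes reaching 1 FPKM in 3 or more of the 6 libraries were tested on log2(FPKM + 1) with limma 3.58.1 (R 4.3.3), in one fit of all 21 libraries with a variance trend and 14 residual degrees of freedom, and p-values were adjusted over 12002 genes by Benjamini-Hochberg, with a threshold of 0.05. Ivabradine against the mean of the 4 other drug groups was a second contrast of that fit. Tables were made with Python 3.11.15 and pandas 2.3.3. Tested on simulated data for the first comparison (50 genes per size among 12002), the fit recovered 44% of changes of 0.25, 84% of 0.5, 98% of 1 and 100% of 2 log2 units, with 11 false calls. The simulated noise was independent between genes, and 200 genes were changed. Deviations that many genes of a library share were thus left out, and the false calls do not measure them.

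The gene lists and the genes compared were chosen with earlier results of these data known. Named genes are the 10 widest called differences each way without overlap of the libraries and with a gene symbol, up to 4 members of smallest p of each list, any member of the receptor, limiting and pacemaker lists, and the 2 highest markers of a cell type. For the second contrast they are the 5 widest each way. Adrbk2, Arntl, Bhlhe41, Cacnb2, Cdk1, Clock, Crem, Fbxo32, Fos, Foxo1, Gem, Hlf, Irs2, Jun, Kcna4, Kcnj11, Myh6, Myl2, Mylpf, Nr1d2, Pecam1, Per2, Pfkm, Ppargc1a in the first comparison, Tnnt2 and Ube2c were chosen after their values were seen. Alternatives changed the pseudocount, filter, scaling, moderation, libraries in the fit, replicate block and a covariate for Y-linked transcripts.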

Additional observations from a re-analysis of the deposited data

How the results depend on the processing

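The 2169 calls between isoproterenol and ivabradine were 2188 with a pseudocount of 0.1, 1874 with no filter and 1795 with a filter at 5 FPKM. They were 939 when the fit held only the groups of the contrast, which leaves fewer libraries to estimate the spread, and 1220 with a covariate for Y-linked transcripts. Leaving out 1 library gave 1126 to 2150. Of alternatives chosen after seeing the data, the libraries without Y-linked transcripts gave 80, with 3 isoproterenol libraries against 1 ivabradine library, which is assumed to vary like the others. Leaving out isoproterenol library 3 and ivabradine library 3 together gave 562. For ivabradine against the 4 other drugs the 37 calls were 22 with no filter and 5 to 92 with 1 library left out, and the cause was not tested. Replicate numbers are shared between the groups, but same-numbered libraries did not deviate together (correlations 0.014, -0.05 and 0.026), so they share only a number, and with the replicate block the counts were 2039 and 30. Of 140 named genes, which leave out Adrbk2 and Mylpf, 33 kept their call and direction under every alternative run for them, at most 17. The sign changed only in 5 genes that were not called: with 1 library left out the log2 difference was -0.15 to 0.06 for Arl4d, -0.1 to 0.1 for Cacna1g, -0.03 to 0.31 for Hcn2, -0.01 to 0.16 for Tbx18 and -0.05 to 0.1 for Tnnt2. It was 0.02 for Arl4d and -0.08 for Cacna1g among libraries without Y-linked transcripts, and -0.06 for both Hcn2 and Tnnt2 without isoproterenol library 3 and ivabradine library 3 together. Absolute depth is unknown, and no counting error is given for weakly expressed genes.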
